A study of Mus musculus with 4 samples.

Results

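The response to 3 h of lipopolysaccharide (LPS) was examined in macrophages that lack Batf2, a basic leucine zipper transcription factor. It was read from 1 RNA-seq library of Batf2-/- cells taken at 3 h of LPS (KO at 3 h) and 1 taken at 0 h (KO at 0 h). The genes described are all those with a summed FPKM of at least 1 in either KO library, 10972 of the 24092 gene symbols or unnamed accessions that the tables list. FPKM is a read density scaled to transcript length and to the reads of the library. The cells of both libraries were bone marrow-derived macrophages of the C57BL/6 background, grown for 6 days with 10 ng/ml of GM-CSF and taken as the adherent cells. The treatment text for every library gives interferon-gamma at 10 ng/ml for 4 h, then LPS at 100 ng/ml for the stated time. Wild-type cells (Batf2+/+, called WT) with the same culture, interferon-gamma and LPS gave 1 library at 0 h and 1 at 3 h, which are set beside the KO values. No group has a replicate, so no test of a difference was possible, and intervals given here are those of Cufflinks for a single library.

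LPS is a component of the outer membrane of Gram-negative bacteria. It is bound by CD14 and MD-2 and activates Toll-like receptor 4, which signals through the adaptors MyD88 and TRIF to NF-kappaB, the MAP kinases and IRF3. Interferon-beta made in response acts back on the cell through its receptor, and interferon-gamma is known to prime macrophages for LPS. Early in such a response macrophages make cytokines and chemokines, and many genes of growth, of the cell cycle and of resting functions are known to be turned down.

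The label of the cells was checked against 12 macrophage markers, all of which were measured at an FPKM of at least 1. Lyz2, the lysozyme of myeloid cells, had an FPKM of 23092 and 14415 in KO at 0 and 3 h, and Csf1r, the receptor for M-CSF, of 187 and 153. Of 15 lymphocyte markers, 2 had an FPKM of at least 1 in either KO library, and of 10 erythroid and megakaryocyte markers 1 did. By contrast, 11 of 13 dendritic cell markers did, and 8 of 13 mast cell, basophil and eosinophil markers. Neutrophil and precursor markers were present, at levels that differed between the libraries. Their summed FPKM was 8876 and 5147 in KO at 0 and 3 h, against 3635 and 5342 in WT. All 13 tested members had negative differences between 3 h and 0 h in KO, with a median of -0.74 on the log2(FPKM + 1) scale. So did 8762 of all 10972 tested genes, with a median of -0.64. Of the 13, 3 passed the size rule given below. After the rescaling given below their median was -0.24, and 3 were still lower. Stromal and endothelial markers summed to 148.6 and 102.5 FPKM in KO, against 69.1 and 70.0 in WT. In bulk RNA, fewer cells of a type and less RNA per cell cannot be told apart, and the part of these cells in the differences below was not tested.

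A further value bears on every comparison of 3 h with 0 h. The 16 guanylate-binding proteins and immunity-related GTPases, textbook targets of interferon-gamma, summed to 93.0 FPKM in KO at 0 h and to 5067 at 3 h, and to 138.2 and 5648 in WT. Genes that interferon-gamma induces were thus low in libraries that the treatment text describes as pretreated with it. What belongs to LPS and what to interferon-gamma cannot be told apart in these differences, which are called differences between 3 h and 0 h.

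A gene is called higher or lower where log2(FPKM + 1) at 3 h minus that at 0 h was at least 1 in size, which is 2-fold. Its deposited 95% intervals at 0 h and 3 h also had to lie apart. For a gene with several entries the limits were summed, and such a summed interval is no longer a 95% interval. This size rule describes 2 libraries and is not a test. In KO cells 863 of 10972 genes were higher at 3 h (7.87%) and 3067 were lower (28.0%), the shares against which the counts of each list below are to be read. The median difference over all tested genes was -0.64, so the typical gene was already lower at 3 h. FPKM is relative to the library total, and the higher genes took 29.5% of summed FPKM at 3 h, from 5.05% at 0 h. When both libraries were rescaled by their median ratio, 1405 of 10799 genes were higher (13%) and 1090 were lower (10.1%). The share of called genes that were higher therefore was 22.0% as deposited, 56.3% after rescaling and 39.3% with a pseudocount of 5. Which of these scales describes RNA per cell cannot be read from the files, and a gene with a difference near -0.64 moved as the typical gene did. Of the genes named below as lower, Tlr4, Tlr13, Irak1, Irak4, Irf3, Jun, Ifngr1, Ccl6, Ccr2, Alox5ap, Ltc4s, Tbxas1, Clec10a, Aco1, Idh2, Idh3a, Fh1, Hmgcs1, Asah1, Mcm5, Ccnd3, Cdk4, Trp53, Ddit3, Xbp1, Arntl, Acadm, Hspd1, Prg2 and Epx were not called after rescaling. B2m, H2-D1, Tbk1, Gsdmd, Ncf1, Nr3c1, Csf1, Mki67, Hspa5 and Noc4l, which are given below as not passing, and Il10, given as too low for a call, were then called higher. No gene named as higher lost its call by rescaling. The list counts below are as deposited. Rescaling took the number of lower members from 4 to 1 in the Toll-like receptor 4 complex, from 7 to 3 among eicosanoid enzymes, from 5 to 3 among scavenger receptors, from 5 to 1 each in the citric acid cycle and among matrix proteases, from 8 to 4 among regulators of the cell cycle and from 4 to 1 in the unfolded protein response. It took the number of higher members from 3 to 6 among immediate-early factors, from 1 to 5 among lineage factors, from 2 to 6 each among cytokine receptors and NRF2 targets, from 5 to 8 among inflammasome genes, from 2 to 5 among scavenger receptors, from 4 to 7 in the complement list and from 5 to 9 among regulators of the cell cycle.

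From 8-fold upward, differences were more often positive. A difference of at least 2 (4-fold) was reached by 367 higher and 366 lower genes, one of at least 3 by 187 and 56, and one of at least 5 by 56 and 3. There were 264 genes that reached an FPKM of 1 at 3 h only and 1472 that did so at 0 h only. An FPKM of 1 or more was reached by 10708 genes at 0 h and by 9500 at 3 h. Near the threshold, 71 genes lay between 1 and 1.1 and 66 between 0.9 and 1, while 555 lay between -1.1 and -1 and 601 between -1 and -0.9. The number of lower genes thus rests on where the threshold lies within a dense range of values. Another 57 genes had a difference of at least 1 in size but overlapping intervals and were not called.

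**Figure D1:**
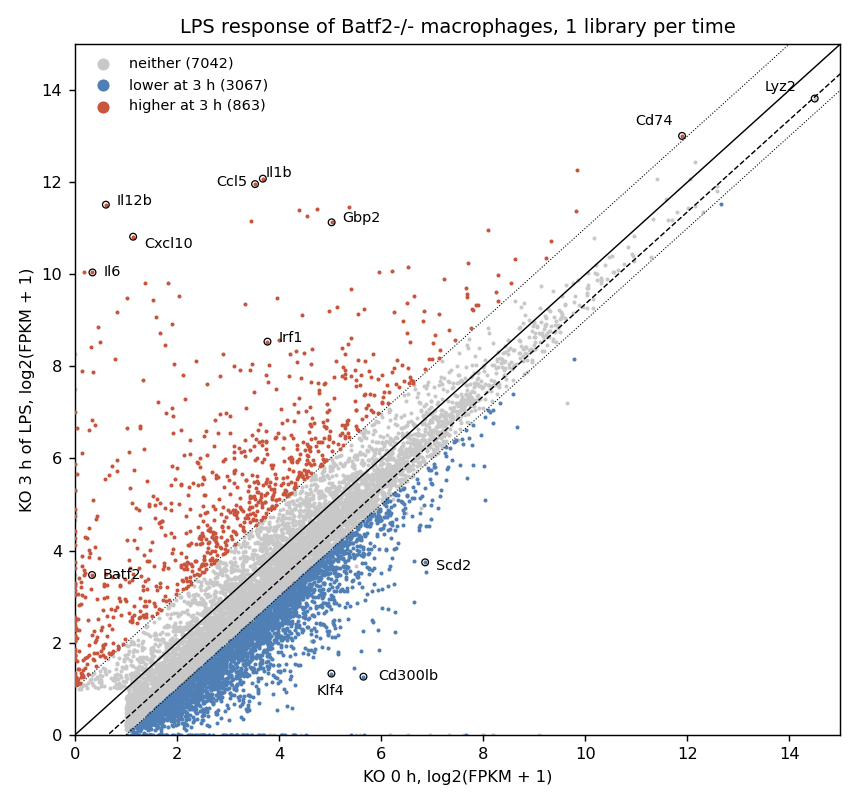
Each point is a gene, with log2(FPKM + 1) in KO at 0 h on the x axis and in KO at 3 h on the y axis. Red points (863) are higher and blue points (3067) lower by the size rule, grey points are neither, the solid line marks equality, the dashed line the median ratio (-0.65 in log2) and the dotted lines 2-fold, and the cloud of grey points lies along the dashed line.

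Named genes past the size rule were ranked if their FPKM was at least 5 in either KO library and above 0 in both. The largest differences in this ranking were those of secreted mediators and interferon-induced genes. Il12b, the p40 subunit of interleukin-12 and interleukin-23 (chromosome 11, 44400063 to 44414033, GRCm38), had a KO FPKM of 0.519 and 2916 at 0 and 3 h, with an interval of 2898 to 2934 at 3 h, and a WT FPKM of 0.767 and 1867. Its difference of 10.91 was the highest of any named gene with an FPKM of at least 5. Cxcl9 and Cxcl10, chemokines that attract T cells, had KO values of 0.124 and 1058 and of 1.20 and 1801. Il6, a cytokine of the acute phase response, went with 0.266 and 1052 (WT 0.3903 and 826). Next by size stood Cd40, the costimulatory receptor (8.47), Il1b (8.43), the antiviral enzyme Rsad2 (8.42), Ccl5 (8.40), Oasl1 (8.39), Cxcl1 (8.36), the inducible nitric oxide synthase Nos2 (8.10), Il27 (8.04), Gbp5 (7.98), the cyclooxygenase Ptgs2 (7.92) and the GTPase Iigp1 (7.77). All 15 were also higher in WT.

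The most strongly lower genes of the same ranking were of mixed kinds. It left out unnamed gene models and genes listed at 0 in 1 library, such as Tnfsf13 (-4.05). Cd300lb, an activating receptor of the CD300 family (chromosome 11, 114922781 to 114934386), had a KO FPKM of 49.2 and 1.398 at 0 and 3 h, with an interval of 1.11 to 1.69 at 3 h, and a WT FPKM of 42.5 and 2.79. It was followed by Lhfpl2 (-4.12), the retinal reductase Dhrs3 (-4.03), Galnt9 (-4.01), the actin regulator Eps8 (-3.78), Arhgap25 (-3.75), a GTPase-activating protein for Rac, and the transcription factor Klf4 (-3.69). Tmem86a, which hydrolyses lysoplasmalogens, had KO values of 17.9 and 0.506, Emp1 of 59.96 and 3.87 and Rab3il1 of 76.5 and 5.39. Sh2d1b1, a SAP family adaptor, had 16.7 and 0.553, and Hal, which degrades histidine, 14.6 and 0.448. The last of the 15 were Vsir, an inhibitory ligand for T cells (-3.40), the lysosomal acetyltransferase Hgsnat (-3.39) and the small GTPase Arl11 (-3.39). All 15 were lower in WT as well, with Hgsnat by the least (-1.01).

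**Figure D2:**
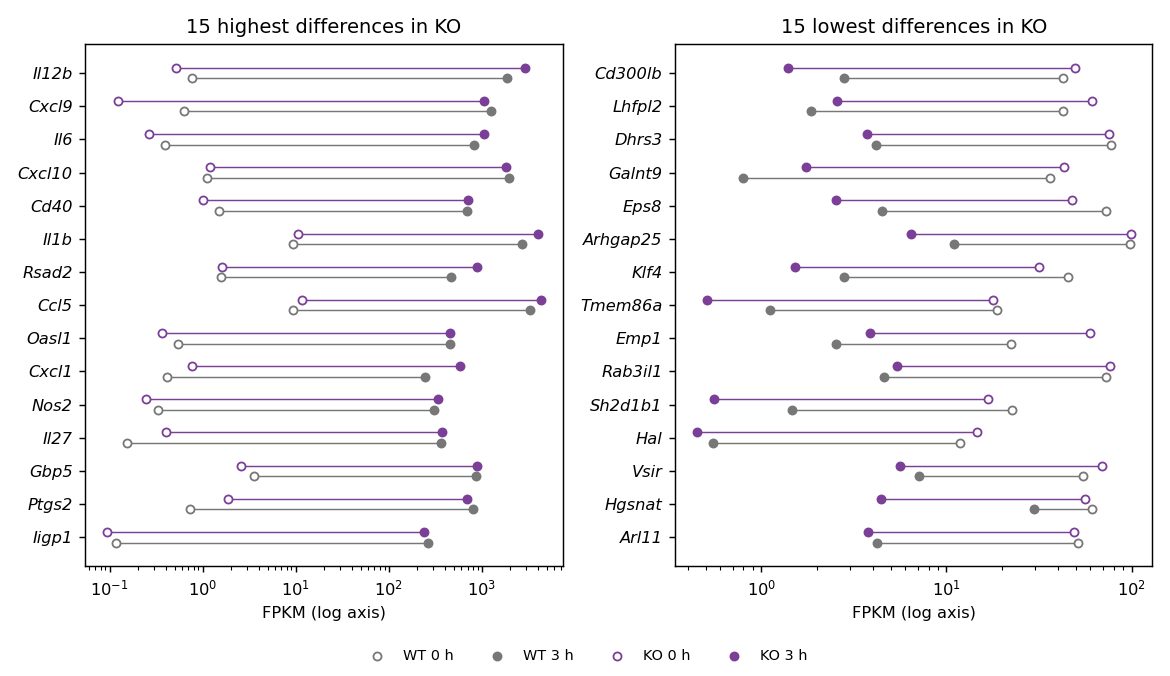
FPKM on a log axis of the 15 genes with the highest (left) and the 15 with the lowest (right) difference in KO. They were ranked among called, named genes with an FPKM of at least 5 in either KO library and above 0 in both. Each point is 1 library, with open circles for 0 h, filled circles for 3 h, purple for KO and grey for WT. The 0 h and 3 h points of a gene lie apart in the same direction in both genotypes for all 30 genes, and Hgsnat at 3 h is 4.42 in KO and 29.7 in WT.

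The receptor complex for LPS and its adaptors were split. Of 22 tested members, 5 were higher and 4 lower in KO, with a median of -0.08. Cd14, the co-receptor that hands LPS to MD-2, had a KO FPKM of 33.9 and 625 (difference 4.17) and a WT FPKM of 36.9 and 294. Tlr4, the receptor itself, was lower at 30.8 and 12.6 (-1.23). The adaptor Myd88 was higher (44.7 and 103), as were the kinases Irak2 (1.72) and Ikbke (1.31) and Irak3, a pseudokinase that restrains the pathway (1.59). Irak1 and Irak4, the kinases that Myd88 recruits, were lower (24.04 and 10.7 and 16.4 and 7.63 FPKM), as was Tab1 (-1.71). Ticam1, which encodes TRIF, had 12.5 and 12.7 FPKM and Tbk1, the kinase of IRF3, 29.4 and 48.7, and neither passed the size rule.

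Among the other Toll-like and nucleic acid sensors, 10 of 18 were higher and 2 lower, with a median of 1.06. The cytosolic RNA sensor Ifih1 had a KO FPKM of 5.03 and 196 and a WT FPKM of 5.46 and 176. Zbp1, a sensor of left-handed nucleic acid, had 12.8 and 200.1 in KO, Dhx58 4.64 and 42.5 and Ddx58, which encodes RIG-I, 7.75 and 53.2. Nod1 and Nod2, sensors of bacterial cell wall fragments, differed by 2.67 and 2.85. Mavs, the adaptor through which Ifih1 and RIG-I signal, was lower at 17.8 and 2.82 (-2.30), and so was Tlr13, a receptor of bacterial ribosomal RNA (-1.56). The receptors and their shared adaptor therefore had differences of opposite sign in KO, as they did in WT (Mavs -2.17).

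All 11 NF-kappaB subunits and IkappaB proteins were higher in KO, with a median of 2.54, and all 11 were higher in WT (median 2.23). Nfkbiz, a nuclear IkappaB protein needed for secondary genes such as Il6, had a KO FPKM of 1.53 and 207 and a WT FPKM of 1.03 and 157. Rel, the c-Rel subunit, had 7.62 and 63.7, Nfkb2 26.5 and 177 and Nfkb1, which encodes the p105 precursor of p50, 36.8 and 220.5. Nfkbia, the IkappaB protein that recaptures NF-kappaB, had 85.4 and 502 in KO and 70.4 and 445 in WT. Rela, the p65 subunit, differed least (1.12).

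The interferon regulatory factors and STAT proteins split by member, with 8 of 15 higher and 2 lower in KO (median 1.48). Irf7, which amplifies type I interferon, had a KO FPKM of 1.40 and 103 (WT 1.51 and 92.02). Irf1, a factor that interferon-gamma induces, had 12.6 and 370.4 (WT 12.4 and 419) and Irf8, a myeloid factor, 19.1 and 323 (WT 19.4 and 403). Stat2 differed by 2.87. Irf4, a factor of alternatively activated and dendritic cells, was lower at 45.7 and 10.6, and Irf3, which TRIF signalling activates without new synthesis, at 15.6 and 6.09. Stat6, the factor of interleukin-4 signalling, had 81.98 and 57.5 and did not pass.

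Immediate-early and AP-1 factors went in both directions. Of 18 tested, 3 were higher and 6 lower in KO (median -0.39, WT -0.39), beside 7.87% and 28.0% of all genes. After median-ratio rescaling 6 were higher and 4 lower, with a median of 0.23. Maff (2.38), Junb (1.83) and Klf6 (1.09) were the higher ones. Myc, a driver of growth and ribosome production, was lower at 33.05 and 3.34 FPKM in KO and 31.2 and 3.29 in WT. Egr2 was lower at 77.5 and 15.7, Jun at 39.6 and 14.3 and Fos at 14.8 and 2.502, whose WT value was 11.5 and 6.27. Batf and Batf3 are the closest relatives of Batf2. Batf had 21.8 and 28.5 FPKM in KO (0.37) and 22.4 and 21.2 in WT, and Batf3 was lower with 28.2 and 7.44 in KO (-1.79) and 39.4 and 10.6 in WT. In none of these libraries did either relative reach the 234 FPKM that Batf2 had in WT at 3 h.

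Lineage factors and nuclear receptors were lower in part. Of 29 tested, 11 were lower and 1 was higher in KO (median -0.73, WT -0.66). Spi1, which encodes PU.1, had 312 and 315 FPKM and Cebpb 219.9 and 222, both nearly level. Klf4 was lower at 31.5 and 1.51 and Tfeb, the factor of lysosome genes, at 18.95 and 1.12. Among the nuclear receptors, 4 were lower by more than 4-fold: Rara (-2.89) and Rxra (-2.78), which bind retinoids, Vdr for vitamin D (-2.85) and Pparg for lipids (-2.59). Nr4a3, an orphan nuclear receptor, was the exception at 2.72 and 137 in KO (5.21) and 5.56 and 83.1 in WT (3.68). Nr3c1, the glucocorticoid receptor, had 12.3 and 21.6 and did not pass.

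Proinflammatory cytokines had the second highest list median, 4.50 in KO and 3.70 in WT, with 11 of 14 tested members higher in each. Tnf had a KO FPKM of 40.03 and 2815, Il1a of 25.8 and 2743 and Il1b of 10.5 and 3976, with WT values of 39.9 and 2492, 18.4 and 1935 and 9.27 and 2694. The p35 subunit Il12a had 0.0943 and 68.5 and the p19 subunit Il23a 0.0291 and 49.8, with WT values of 0.0359 and 60.5 and 0.0663 and 10.6. Il18, which acts on lymphocytes to induce interferon-gamma, had 2.44 and 6.44 and passed narrowly (1.12). Csf1 (44.6 and 64.2), Osm (6.67 and 6.75) and Ltb (4.90 and 5.55) did not pass. Csf2, the cytokine GM-CSF in which the cells were grown, stayed under an FPKM of 1 in all 4 libraries.

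In the list of IL-27 subunits and anti-inflammatory cytokines, 4 of 8 were higher and 1 was lower in KO. Il27, the p28 subunit, had 0.402 and 369 FPKM and its partner Ebi3 38.2 and 104. Il1rn, the antagonist of the interleukin-1 receptor, had 312 and 1006 and Inhba, a subunit of activin, 61.5 and 1054. Tgfb1 had 232 and 151, near the typical gene (-0.62). Il10 was listed at 0 at 0 h and had 0.842 FPKM at 3 h in KO, under the level needed for a call.

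Chemokines were higher by count and by level. Of 12 CC chemokines, 7 were higher and 1 was lower in KO, and of 13 CXC and CX3C chemokines 9 were higher and 1 was lower. Ccl3 (914 and 4932), Ccl4 (273 and 1986) and Ccl22 (149 and 955) were already expressed at 0 h. Ccl12, a ligand of CCR2, had 5.67 and 113. Cxcl2 and Cxcl3, which attract neutrophils, had 9.84 and 2281 and 41.4 and 823 in KO. Ccl6 was the second most abundant gene in KO at 0 h and was lower at 3 h (6439 and 2953), and Cxcl12, which retains cells in the marrow, was lower too (8.03 and 1.79). The other monocyte chemokine genes, Ccl2 (528 and 466) and Ccl7 (72.3 and 44.99), did not pass, and Ccl17 had 2553 and 2354.

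Of 12 receptors for chemoattractants 5 were higher and 4 lower in KO. Ccrl2, a receptor that presents chemerin, had 6.47 and 305 FPKM and Ccr7, which guides cells to lymph nodes, 1.88 and 35.2 (WT 1.796 and 18.2). The formyl peptide receptors Fpr1 and Fpr2 were higher (2.60 and 2.91). C3ar1, the receptor of complement fragment C3a, was lower at 55.2 and 7.73, Cxcr4 at 21.7 and 2.67, Ccr1 at 144 and 38.5 and Ccr2 at 101 and 38.4. The other complement fragment receptor, C5ar1, was higher (28.6 and 60.8), so that receptors of like ligands lay on both sides. Among 23 cytokine and growth factor receptors 2 were higher, Il15ra (1.66 and 44.5) and Il10ra (23.05 and 73.04). The 5 lower ones were Il6ra (-2.65), Tgfbr2 (-1.97), the decoy Il1r2 (-1.79), Il6st, which encodes gp130 (-1.76), and Ifngr1, the ligand-binding chain of the interferon-gamma receptor (-1.34, 34.3 and 12.95). The GM-CSF receptor chains Csf2ra (232 and 198) and Csf2rb (427 and 346) and Csf1r did not pass.

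TNF superfamily ligands and receptors had 8 of 16 members higher and 6 lower in KO, with a median of 0.49 against -0.07 in WT. Tnfsf15, the ligand TL1A, had 3.099 and 735 FPKM in KO and 5.96 and 614 in WT. Tnfsf9, which costimulates T cells, had 3.99 and 43.1, Tnfsf10, the death ligand TRAIL, 0.234 and 8.02, and Fas 10.95 and 43.2. Tnfrsf21 (29.6 and 6.04), Tnfrsf26 (19.7 and 5.005) and Tnfrsf11a, the receptor of RANKL (5.84 and 0.995), were lower. Tnfsf13 was listed at 0 at 3 h in both genotypes and gets no fold.

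All 30 antiviral interferon-stimulated genes were higher in KO (median 3.60) and in WT (median 3.49). Ifnb1, interferon-beta, was listed at 0 in KO at 0 h and had 20.6 FPKM at 3 h, with 0.0677 and 19.5 in WT. Isg15, a ubiquitin-like modifier, had a KO FPKM of 2.71 and 483 and Ifit1, which binds viral RNA, of 0.717 and 287. Rsad2 had 1.59 and 890 in KO and 1.58 and 468 in WT, and Cmpk2, a mitochondrial nucleotide kinase, 2.39 and 353 and 1.77 and 189.5. At the low end stood Bst2 (1.09) and Trim25 (1.24), both expressed at 0 h. The 16 guanylate-binding proteins and immunity-related GTPases, which attack vacuoles that hold microbes, were all higher, with a median of 5.06 in KO and 5.22 in WT. Gbp2 had 31.6 and 2236 FPKM in KO, Gbp5 2.55 and 893, Irgm1 7.65 and 254 and Gvin1, the one with the smallest difference, 5.81 and 46.4. Tgtp1 and Tgtp2, like the members of the Gbp cluster, are near copies, and reads may be split between them.

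**Figure D3:**
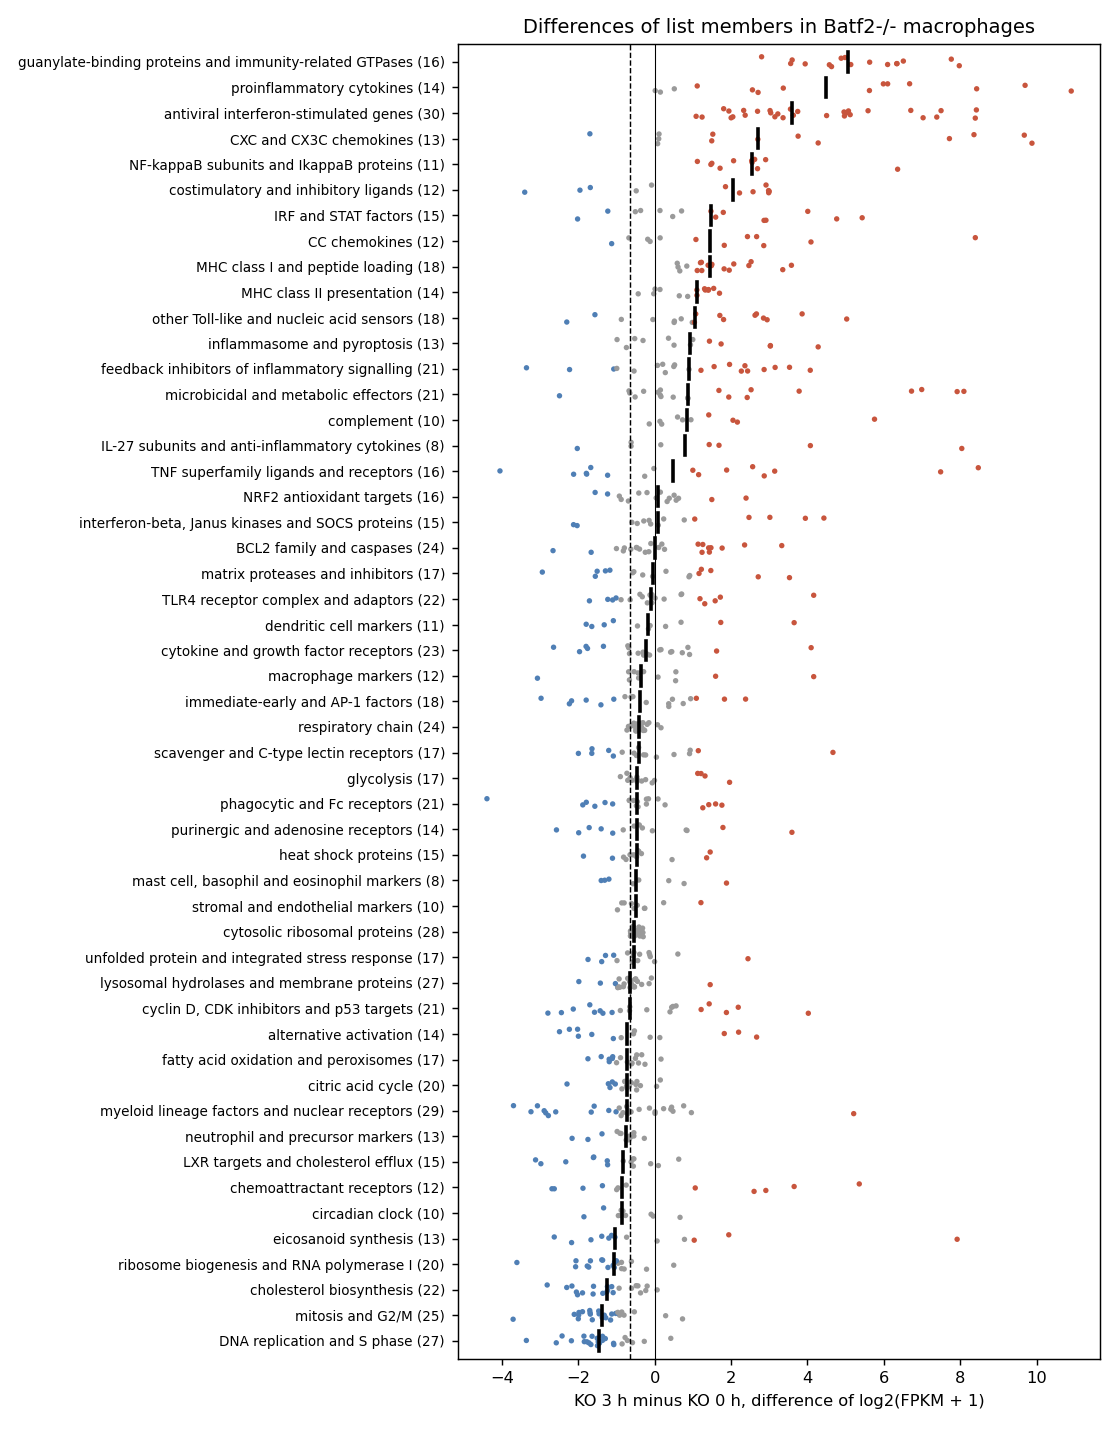
Each row is a gene list with the number of tested members in parentheses, and each point a member placed by its difference of log2(FPKM + 1) between KO at 3 h and KO at 0 h, red where higher, blue where lower and grey where neither by the size rule. Black ticks are list medians, the dashed line is the median of all genes (-0.64), and the lists run from 5.06 for the guanylate-binding proteins to -1.45 for S phase genes.

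The feedback arm of interferon signalling was higher in part. Socs1 and Socs3, inhibitors of Janus kinases, had KO values of 10.3 and 173 and 33.5 and 278 FPKM, and Jak2 itself 37.9 and 215. Socs2, an inhibitor of growth hormone signalling, was lower at 45.7 and 9.74 and Socs6 at 30.3 and 6.67. Of 21 feedback inhibitors of inflammatory signalling, 10 were higher and 3 lower in KO (median 0.90, WT 1.09). Tnfaip3, the ubiquitin-editing enzyme A20, had 12.3 and 223, Peli1 5.64 and 75.8 and Zc3h12a, a nuclease that degrades cytokine mRNA, 7.63 and 75.9. Zfp36, which encodes tristetraprolin, was higher (1.21), whereas its relative Zfp36l2 was lower at 117 and 10.5 (-3.35). Dusp6, a phosphatase of ERK, was lower (-2.23), and Dusp1, a phosphatase of p38 and JNK, had 16.6 and 17.6.

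Antigen presentation on MHC class I was higher in 14 of 18 tested genes, with a median of 1.44 in KO and 1.46 in WT. The peptide transporter Tap1 had a KO FPKM of 14.3 and 182, the transactivator Nlrc5 of 3.23 and 42.3 and the immunoproteasome subunit Psmb9 of 21.9 and 131. B2m, among the 10 most abundant genes at 3 h, had 2726 and 4309 and did not pass (0.66). The classical heavy chains are near copies of each other, and reads may be split between H2-K1 (313 and 679.9) and H2-D1 (561 and 859).

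Antigen presentation on MHC class II differed between the genotypes in its values. In KO 8 of 14 tested genes were higher, with a median of 1.11, and in WT 1 of 13 was, with a median of 0.24. H2-Ab1, a beta chain, had a KO FPKM of 901 and 2636 and a WT FPKM of 1636 and 2111. H2-Aa had 639.8 and 1698 in KO and 1135 and 1341 in WT, H2-Eb1 394 and 1280.2 and 694 and 932, and the invariant chain Cd74 3810 and 8213 and 6209 and 7081. For these genes the KO library was below WT at 0 h and above it at 3 h. Ciita, the transactivator of class II, followed with 9.52 and 25.04 in KO at 0 and 3 h and 18.8 and 26.2 in WT, near each other at 3 h. The difference between these responses was not tested, since each rests on 2 libraries. Ccl17, Clec10a and Cd209a, which dendritic cells also express, were higher in WT than in KO at 0 h (2553 in KO and 4348 in WT for Ccl17). The summed FPKM of 13 dendritic cell markers at 0 h was 3296 in KO and 5161 in WT. Ccl17 made up most of both sums and most of the gap between them, so they say little about the other markers. The part of such cells in the class II values was not tested.

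Costimulatory and inhibitory ligands had 7 of 12 members higher and 3 lower in KO. Cd86 (4.33 and 41.6) and Cd80 (14.8 and 93.5), which costimulate T cells, Cd83 (3.07 and 31.3) and the adhesion ligand Icam1 (75.6 and 577) were higher. Cd274, which encodes the inhibitory ligand PD-L1, was higher too (90.1 and 424). Vsir (69.1 and 5.64), Cd276 (6.69 and 0.985) and Havcr2, which encodes TIM-3 (5.34 and 0.974), were lower. The inhibitory genes of this list thus lay on both sides.

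Effector genes of killing and metabolism had 9 of 21 members higher and 1 lower in KO (median 0.87). Nos2 had a KO FPKM of 0.248 and 341 and a WT FPKM of 0.334 and 307. Acod1, which makes itaconate, had 20.02 and 2676, and Slc7a2, which imports arginine, 21.5 and 309.7. Saa3, an acute phase protein, had 22.3 and 2470.1 in KO and 23.2 and 1322 in WT. Arg1, which competes with Nos2 for arginine, was lower at 6.25 and 0.291. The subunits of the phagocyte oxidase did not pass, with Cybb at 553 and 612 and Ncf1 at 242 and 339. Lcn2, a siderophore-binding protein that neutrophil precursors also make, had 418 and 464 in KO and 135 and 498 in WT.

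Eicosanoid enzymes moved in opposite directions. Of 13 tested, 3 were higher and 7 lower in KO. Ptgs2 and Ptges, the inducible enzymes of prostaglandin E2, had 1.87 and 695 and 1.71 and 9.399 FPKM. The constitutive cyclooxygenase Ptgs1 was lower at 32.1 and 4.35. Lower as well were the leukotriene genes Alox5 (30.3 and 5.94), Lta4h (73.6 and 22.5), Ltc4s (6.65 and 1.93) and Alox5ap (272 and 132), and the thromboxane synthase Tbxas1 (119 and 54.2). WT values at 0 and 3 h were alike for Ptgs1 (29.6 and 4.06) and Alox5 (33.1 and 6.61).

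Of 13 inflammasome and pyroptosis genes, 5 were higher and none lower in KO. Mefv, which encodes pyrin, had 1.104 and 39.9, Nlrp3 23.7 and 200.3 and Casp4, the sensor of cytosolic LPS, 7.63 and 69.6. The adaptor Pycard (72.6 and 36.2) and the pore protein gene Gsdmd (31.7 and 61.7) did not pass. Among 24 BCL2 family members and caspases, 9 were higher and 2 lower. Cflar, which blocks caspase-8, had 20.4 and 214, Birc3 16.02 and 86.1 and Bcl2a1b, one of several near-identical copies, 374 and 899. Casp9 (14.03 and 1.38) and Bcl2 (5.53 and 1.06) were lower.

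Phagocytic and Fc receptors had 4 of 21 members higher and 6 lower in KO, and scavenger and C-type lectin receptors 2 of 17 higher and 5 lower. Clec4e, a receptor for mycobacterial glycolipid, had 20.7 and 551 FPKM in KO. Mertk, a receptor for dying cells, was higher (31.1 and 96.2) while its ligand Gas6 was lower (4.71 and 0.932). Mrc1, the mannose receptor, was lower at 125 and 30.5, and Scarb1, which takes up HDL lipid, at 38.5 and 11.7. Fcgr2b, the inhibitory Fc receptor, had 284 and 208 in KO (-0.45) and was lower in WT at 267 and 74.8 (-1.82). Timd4, which binds phosphatidylserine on dying cells, had 0.136 and 1.73 in KO and 0.175 and 11.9 in WT. In the complement list 4 of 10 were higher and none lower, led by Cfb of the alternative pathway (4.16 and 278) and C3 (112 and 508).

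Alternative activation genes had 6 of 14 members lower and 3 higher in KO. Beside Arg1, Mrc1, Irf4 and Egr2, the lower ones included Clec10a (45.8 and 21.1). Ccl22, Ccl24 and the transglutaminase Tgm2 (44.5 and 208) were the higher ones. Matrix proteases and inhibitors were even, 5 higher and 5 lower of 17. Plau, the urokinase activator of plasmin, was lower at 260.2 and 33.1 while Serpinb2, its inhibitor, was higher at 11.6 and 81.7. Mmp12, the macrophage elastase and 1 of the 10 most abundant genes at 0 h, had 4142 and 2786. Among purinergic and adenosine receptors Adora2a, which restrains inflammation, was higher (2.87 and 45.8), and P2ry6 (70.6 and 11.1), P2ry1 (6.12 and 0.795) and P2rx7, the ATP channel of inflammasome activation (16.7 and 4.397), were lower.

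Glycolysis differed by step. Of 17 tested genes, 4 were higher and none lower in KO. Hif1a, the hypoxia factor that drives glycolytic genes, had 54.9 and 217, the phosphofructokinase Pfkp 77.03 and 194, and the hexokinases Hk2 and Hk3 24.5 and 58.3 and 94.4 and 208. Later enzymes stood near the typical gene, with Gapdh at -0.48, Pkm at -0.46 and Ldha at -0.46. Eno1 was listed at 0 in all 4 libraries and gives no information. In the citric acid cycle list, which also holds the cytosolic enzymes Idh1 and Aco1, 5 of 20 were lower and none higher (median -0.71). Idh1 was the lowest at 106 and 20.9, followed by Idh3a (-1.21), Aco1 (-1.17), Idh2 (-1.11) and the fumarase Fh1 (-1.03). After median-ratio rescaling only Idh1 was lower, and the list median was -0.08. Cs, citrate synthase, had 83.3 and 92.6. None of 24 respiratory chain genes passed, with a median of -0.41 that lies above that of all genes.

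Cholesterol synthesis was lower along the pathway, in 14 of 22 tested genes and with a median of -1.23 in KO (11 of 22 and -1.09 in WT). Dhcr7, the last step, had a KO FPKM of 22.7 and 2.38 and a WT FPKM of 23.5 and 2.57. Mvd had 53.2 and 11.1, the epoxidase Sqle 32.1 and 7.01, Lss 10.1 and 1.74 and the entry enzyme Hmgcs1 44.4 and 19.8. The regulator Srebf2 (40.8 and 34.6) did not pass. Fdft1 was listed at 0 in all libraries, and Tm7sf2, counted as lower, was listed at 0 in KO at 3 h. Of 15 LXR and cholesterol efflux genes 7 were lower and none higher, among them the exporter Abcg1 (75.2 and 8.68) and the lipogenic enzymes Scd2 (115 and 12.4) and Fasn (15.7 and 2.34). Abca1, the exporter to ApoA1, had 12.7 and 11.8. After median-ratio rescaling 7 of the 22 synthesis genes and 4 of the 15 LXR genes were lower.

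The lysosome followed the typical gene. Of 27 lysosomal hydrolases and membrane proteins, 3 were lower and 1 was higher in KO, with a median of -0.63 against -0.64 for all genes. Ctsc, which activates granule proteases, was the higher one (219 and 602). Atp6v0d2, a proton pump subunit, was lower at 405 and 102. Ctsd, an aspartic protease, had 5066 and 2596 and Psap, the precursor of saposins, 6126 and 3892, both among the 10 most abundant genes at 0 h. Asah1, acid ceramidase, had 167 and 61.9 in KO, which passed, and 162 and 121 in WT, which did not.

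Genes of DNA replication and of mitosis had the lowest list medians, -1.45 and -1.37 in KO and -1.51 and -1.18 in WT. Of 27 S phase genes 21 were lower and none higher, and of 25 mitotic genes 18 were lower and none higher. The replicative helicase subunits were lower with Mcm6 at 25.5 and 3.44, Mcm2 at 19.6 and 3.54 and Mcm5 at 26.8 and 9.81 FPKM. Ung, which removes uracil from DNA, had 5.14 and 0.145, and the ribonucleotide reductase subunit Rrm2 37.8 and 10.8. In mitosis Kif23 had 9.61 and 1.47, the cyclin Ccna2 27.3 and 6.103, Bub1b 19.1 and 4.07 and Plk1 16.1 and 3.34. Mki67, the proliferation marker, went the other way at 31.1 and 52.2 without passing, and Pcna had 144 and 96.2. Ccne2 and Cdc20 were listed at 0 in KO at 3 h and get no fold. Rescaled, 11 of the S phase genes and 10 of the mitotic ones were lower.

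Regulators of the cycle went in both directions, with 5 of 21 higher and 8 lower in KO. Cdkn1a, the inhibitor p21, had 204 and 754 and Gadd45b 6.799 and 126. Ccnd2 was higher (39.1 and 107) while the other D cyclins Ccnd1 (47.4 and 13.9) and Ccnd3 (47.3 and 17.9) and their kinase Cdk4 (70.7 and 23.1) were lower. The p53 targets Sesn1 (9.17 and 0.467) and Sesn2 (11.3 and 1.803) were lower, and Trp53 itself had 36.8 and 16.5 (-1.11).

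Ribosome biogenesis was lower in 13 of 20 genes, with a median of -1.07 in KO against -0.91 and 7 of 20 in WT. After median-ratio rescaling 6 of the 20 were lower in KO, with a median of -0.48. Nolc1 had a KO FPKM of 27.8 and 5.87, Nop56 of 35.8 and 7.84 and Polr1b, a subunit of RNA polymerase I, of 3.705 and 0.468. Noc4l went the other way at 12.5 and 18.2. Dkc1 was listed at 0 at 3 h in both genotypes. The mRNAs of the ribosomal proteins themselves kept together, with none of 28 called and all between -0.63 (Rpsa) and -0.30 (Rps9). Their median of -0.53 became 0.11 after median-ratio rescaling.

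Stress pathways showed single genes rather than whole lists. In the unfolded protein and integrated stress response 1 of 17 was higher and 4 were lower in KO. Ppp1r15a, which ends eIF2alpha phosphorylation, had 10.9 and 63.6, while Pdia4 (154 and 45.2), Ddit3 (17.8 and 6.19) and Xbp1 (67.9 and 27.3) were lower. Hspa5, the chaperone BiP, had 275 and 419.6 and did not pass. Of 16 NRF2 targets 2 were higher, the cystine importer Slc7a11 (41.4 and 222) and Txnrd1 (128 and 363), and 2 were lower. Hmox1, heme oxygenase 1, had 308 and 167. Of the circadian clock genes 2 of 10 were lower, Tef (4.78 and 0.603) and Arntl, which encodes BMAL1 (4.69 and 1.26), and none higher.

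The values in KO lay near those in WT for most genes. Of 10856 genes tested in WT, 822 were higher (7.57%) and 2515 lower (23.2%), with a median of -0.54. Among 10671 genes tested in both, 721 were higher in both, which is 85.9% of the KO and 89.3% of the WT higher genes. Another 2209 were lower in both, 72.8% of the KO and 88.6% of the WT lower genes. In KO 826 were lower that were called neither way in WT. Opposite calls were made for 2 genes, both higher in KO and lower in WT. The differences correlated with a Pearson r of 0.92 across genes, which are not independent replicates, and the median absolute gap between the genotypes was 0.16. The libraries of the comparisons are separate, but every value comes from 1 culture. Which gaps exceed the spread between cultures could not be tested.

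**Figure D4:**
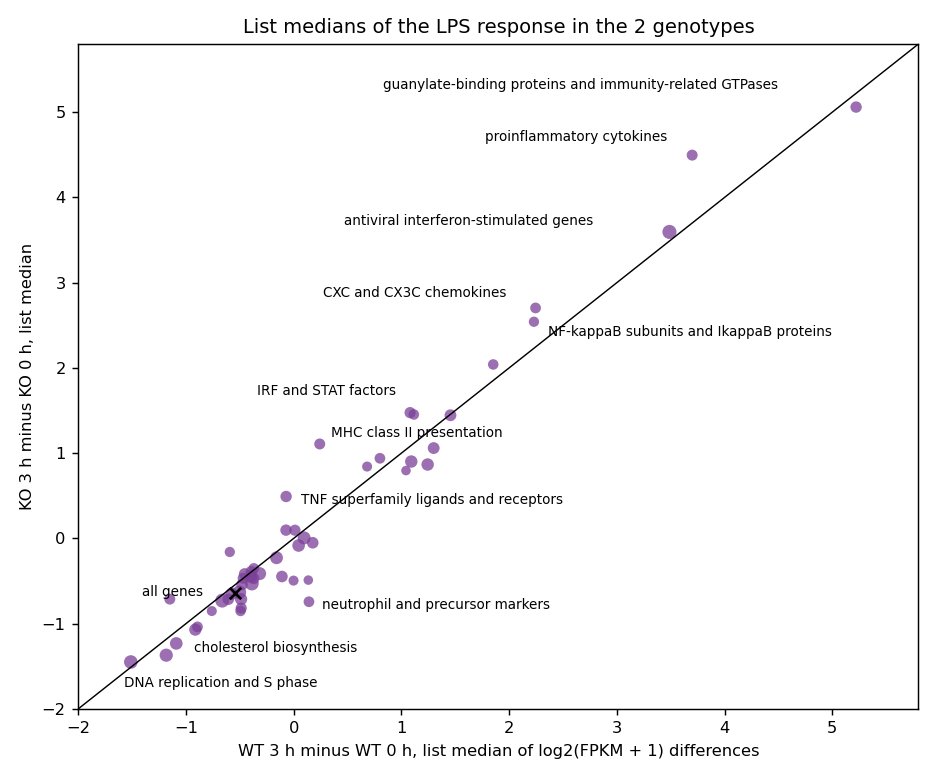
Each point is a gene list, placed by the median difference of log2(FPKM + 1) between 3 h and 0 h in WT (x axis) and in KO (y axis), with larger points for more tested members, a cross for all genes and a line for equality. MHC class II presentation (0.24 in WT, 1.11 in KO) lies above the line and neutrophil markers (0.14 and -0.74) below it.

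There were 197 genes with a gap of at least 1 in size. Gaps were ranked among named genes past the size rule in KO or WT, with an FPKM of at least 5 in any library and above 0 in every library. Of these the targeted gene, Batf2, had the most negative gap. Its annotated span is chromosome 19, 6140983 to 6172476, and its values come from 1 RefSeq entry. It had 0.259 and 10.1 FPKM in KO at 0 and 3 h and 2.62 and 234 in WT. Reads assigned to the locus were thus still more frequent at 3 h in KO. The labels do not give which part of the gene is deleted. The most positive gap among the ranked genes was that of Majin, a meiotic telomere protein, which lies on the same chromosome at 6184388 to 6224225. Majin had 0.143 and 6.91 FPKM in KO and 0.0544 and 0.199 in WT. Il23a had the next gap, 2.18. Nr4a3 followed Adi1 of the methionine salvage pathway, which had 12.2 and 12.5 in KO and 12.1 and 2.44 in WT. Rps29, a ribosomal protein outside the list above, had 238 and 639.6 in KO and 229 and 213 in WT, while none of the 28 listed ones was called. At the other end, Hgsnat, Wdr92 (3.68 and 2.502 in KO, 3.696 and 15.8 in WT), Timd4 and Cyp4f18, an enzyme that inactivates leukotriene B4 (9.73 and 0.794 in KO, 10.8 and 6.26 in WT), had the most negative gaps after Batf2. For Hgsnat, Timd4 and Cyp4f18 the genotypes were near each other at 0 h and apart at 3 h.

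Promoter sequences of the genes were searched to describe what the called genes share beyond their values. RefSeq promoters of GRCm38.p6, from 250 bases before to 50 after the start, were matched for 7881 of the 10972 tested genes. A match is a stretch of letters on either strand and does not show that a factor binds. The promoters of 4 higher genes are printed to show the core letters GGANNNTCC of NF-kappaB sites and GAAANNGAA of interferon-stimulated response elements, in capitals on either strand, and those of Hmgcs1 and Mcm5, which were lower as deposited, to show the sterol response element TCACNCCAC and the E2F site TTTGGCGC. They lie at chr5:92348840-92349139 (Cxcl10, minus strand), chr3:142496684-142496983 (Gbp5, plus), chr19:34640639-34640938 (Ifit1, plus), chr12:55492598-55492897 (Nfkbia, minus), chr13:119690101-119690400 (Hmgcs1, plus) and chr8:75109259-75109558 (Mcm5, plus).
Cxcl10: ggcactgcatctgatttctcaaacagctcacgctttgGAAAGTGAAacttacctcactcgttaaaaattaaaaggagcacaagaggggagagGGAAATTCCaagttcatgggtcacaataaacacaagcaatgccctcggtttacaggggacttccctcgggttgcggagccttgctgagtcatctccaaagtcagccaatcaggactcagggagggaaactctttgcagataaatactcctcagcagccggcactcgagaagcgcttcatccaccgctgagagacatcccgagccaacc
Gbp5: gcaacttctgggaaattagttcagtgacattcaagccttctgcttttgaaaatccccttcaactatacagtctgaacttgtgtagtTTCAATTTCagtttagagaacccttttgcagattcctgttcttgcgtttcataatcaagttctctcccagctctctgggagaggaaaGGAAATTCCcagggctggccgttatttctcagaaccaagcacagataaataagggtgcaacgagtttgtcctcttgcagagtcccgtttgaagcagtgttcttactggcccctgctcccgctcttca
Ifit1: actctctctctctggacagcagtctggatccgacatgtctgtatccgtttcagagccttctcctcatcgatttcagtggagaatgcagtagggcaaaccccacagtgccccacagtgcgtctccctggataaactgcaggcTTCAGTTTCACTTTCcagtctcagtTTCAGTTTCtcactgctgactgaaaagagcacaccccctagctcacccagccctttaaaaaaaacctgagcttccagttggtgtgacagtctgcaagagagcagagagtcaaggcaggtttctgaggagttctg
Nfkbia: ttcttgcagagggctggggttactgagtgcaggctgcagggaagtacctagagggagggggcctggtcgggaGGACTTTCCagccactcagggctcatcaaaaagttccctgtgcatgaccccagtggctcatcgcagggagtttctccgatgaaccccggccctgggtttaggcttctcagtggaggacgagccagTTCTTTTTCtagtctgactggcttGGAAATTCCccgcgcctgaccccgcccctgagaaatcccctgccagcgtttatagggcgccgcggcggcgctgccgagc
Hmgcs1: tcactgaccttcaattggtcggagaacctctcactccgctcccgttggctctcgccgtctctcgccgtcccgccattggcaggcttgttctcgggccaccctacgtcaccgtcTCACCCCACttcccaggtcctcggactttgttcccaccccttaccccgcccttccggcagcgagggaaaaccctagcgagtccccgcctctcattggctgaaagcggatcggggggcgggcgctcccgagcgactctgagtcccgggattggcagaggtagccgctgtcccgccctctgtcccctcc
Mcm5: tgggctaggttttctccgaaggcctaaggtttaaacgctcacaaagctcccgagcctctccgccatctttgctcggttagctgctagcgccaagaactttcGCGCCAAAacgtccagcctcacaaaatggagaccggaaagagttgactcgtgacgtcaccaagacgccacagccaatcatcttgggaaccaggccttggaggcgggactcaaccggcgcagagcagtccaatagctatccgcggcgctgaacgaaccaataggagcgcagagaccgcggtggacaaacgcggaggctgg
Cxcl10, Gbp5 and Nfkbia each hold both kinds of core, and Ifit1 holds 3 interferon cores, of which 2 overlap. They were picked to show the cores and do not stand for higher genes in general. Among higher genes not printed, Il12b holds neither core. Cxcl9 and Rsad2 hold only the interferon core and Tnf only the NF-kappaB core.

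GAAANNGAA occurred in 19.6% of 603 promoters of higher genes, in 27.0% of 252 of those higher by 4-fold or more, in 5.8% of 2238 promoters of lower genes and in 7.7% of all 7881. It occurred in 60.9% of 23 promoters of the antiviral list and in 7 of 7 of the guanylate-binding protein list. GGANNNTCC was in 14.1% of the higher, 10.6% of the lower and 10.2% of all, and in 5 of 9 promoters of proinflammatory cytokines. TATAAA was in 13.6% of the higher, 5.5% of the lower and 7.4% of all. The AP-1 site TGANTCA was in 10.0% of the higher, 4.4% of the lower and 5.2% of all. CCAAT, the box bound by NF-Y, was in 34.3% of the higher, 41.3% of the lower and 38.9% of all. By list it was in 17 of 19 promoters of mitotic genes and in 14 of 16 of cholesterol synthesis genes. Lists with mostly higher genes held it too, in 10 of 15 promoters for MHC class I and 6 of 9 for MHC class II. TTTGGCGC was in 0.7% of the higher, 1.1% of the lower and 1.1% of all, and in 4 of 17 S phase promoters. TCACNCCAC was in 1 of 16 promoters of cholesterol synthesis genes, that of Hmgcs1, and in 1.8% of the higher, 1.0% of the lower and 1.1% of all. The cyclic AMP response element TGACGTCA was in 2.7% of the higher and of the lower genes and in 3.4% of all, and a second E2F form, TTTCCCGC, in 1.5% of the higher, 2.9% of the lower and 2.2% of all.

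**Figure D5:**
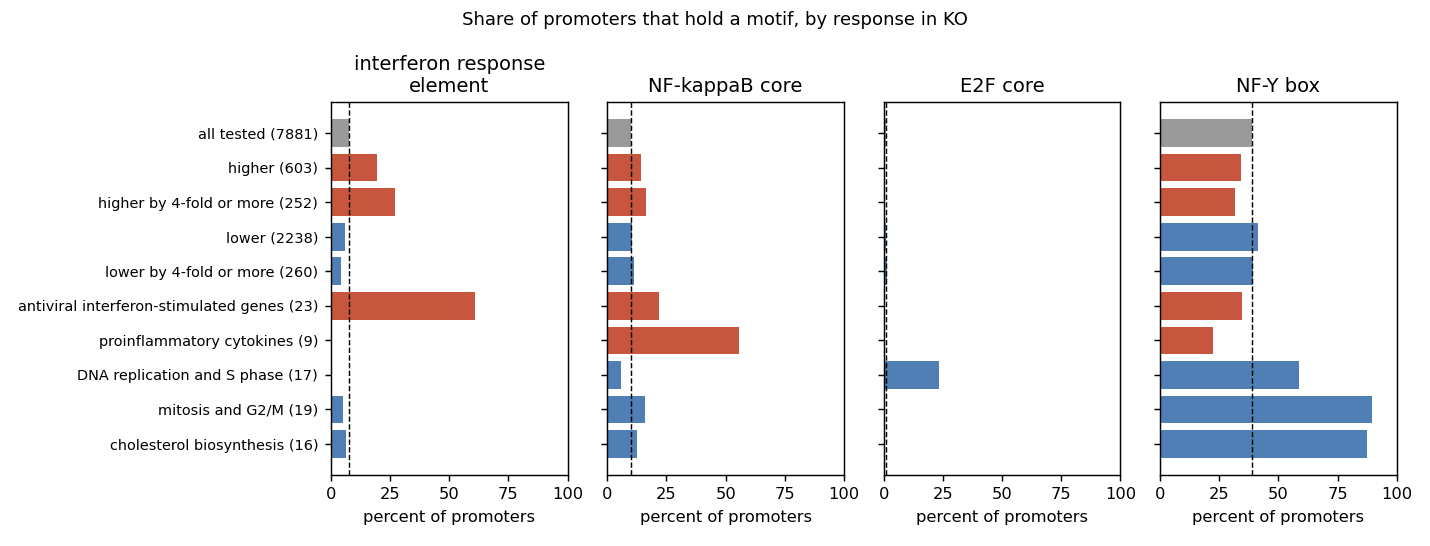
Bars give the percent of 300-base promoters that hold a motif on either strand, for all tested genes (grey), for genes or lists that were higher in KO at 3 h (red) and for those that were lower (blue), with the number of promoters in parentheses and a dashed line at the value of all tested genes. The interferon response element reaches 60.9% in the antiviral list. The NF-Y box reaches 89.5% in mitotic genes and 41.3% over all lower genes.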

How the data were processed

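RNA-seq libraries of KO and WT macrophages at 0 and 3 h of LPS were used, 1 per group, and no sample was left out. Per the labels, libraries were strand-specific and single-read. Per the submitters' processing notes, reads went through TopHat2, Bowtie, SAMtools and Cufflinks with mm9. The labels give no versions of these tools. The deposited values are FPKM per RefSeq entry, with a lower and an upper limit of a 95% interval and a status. The loci fit GRCm38 rather than mm9: 96.5% of entries lay within 1000 bases of the GRCm38 gene of their name, so coordinates are given as GRCm38.

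Each table listed 33841 entries. Of these, 33437 were named through the RefSeq gene table, 187 through GENCODE and 96 by position, and 121 kept their accession. FPKM and the interval limits were each summed over the entries of a symbol with status OK in both libraries. The status was not OK for 428 entries in KO at 0 h and 402 at 3 h, and 194 genes were left out. An FPKM of 0 was kept, though a gene listed at 0 can be a failed estimate. Total FPKM was 476534 and 467189 in KO. Read totals are not in the files, and 15 entries that held a single read in both KO libraries gave a depth at 3 h of 1.09 times that at 0 h. Intervals cover counting and assignment error of 1 library. Since the deposited limits are not always centred on the FPKM, an interval is printed around the FPKM at its deposited relative width.

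Differences are of log2(FPKM + 1), so the added 1 makes those of low genes too small. The size rule (2-fold, FPKM of at least 1 in either library, status OK, intervals apart) was checked on simulated data. These had 1 entry per gene, intervals from counting error alone and no shift between the libraries. Calls under a shift of most genes, as in the deposited values, were not checked. The median ratio is the median of the 3 h to 0 h ratios of genes with an FPKM of at least 1 in both libraries. Rescaling divided it evenly between the libraries. Alternatives were pseudocounts of 0.1 and 5, no FPKM filter, a filter at 5, median-ratio and equal-total scaling, and other ways to treat intervals, entries and zeros. The genes, the 53 lists and the rules were chosen with earlier results of these data known. Named genes were key genes, the 15 highest and 15 lowest, the 10 most abundant in each KO library and the 5 largest gaps to WT each way. Up to 4 members at each end of a list and members against their list were named too. The highest and lowest were ranked among genes past the size rule, with an FPKM of at least 5 in either KO library and above 0 in both. Gaps were ranked among genes past the size rule in KO or WT, with an FPKM of at least 5 in any library and above 0 in every library. Unnamed gene models and small RNAs were left out of these rankings. Another 45 list members were named for their role after their values were seen. Some genes that the rule names are not printed. Python 3.11.15, pandas 2.3.3, numpy 2.4.6 and matplotlib 3.10.9 were used.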

Additional observations from a re-analysis of the deposited data

Results flagged for a closer look

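Results were flagged where the difference between 3 h and 0 h had opposite signs in the genotypes beyond a set size. For a list, the KO and WT medians had to differ by at least 0.5. For a named gene above 0 FPKM in every library, both differences had to be at least 0.5 in size. Smaller opposite signs, such as that of the Toll-like receptor 4 complex (-0.08 in KO, 0.045 in WT), were not flagged. There were 5 flagged results, among lists and named genes only. Over all 10671 genes tested in both genotypes, 2 were called higher in KO and lower in WT, and 0 the other way. Those genes are not among the flagged results. Each rests on 1 library per group, and none of these contrasts between genotypes was tested. The median of the TNF superfamily list was 0.49 in KO and -0.07 in WT. Neutrophil and precursor markers had a median of -0.74 in KO and 0.14 in WT, and their summed FPKM at 0 h was 8876 in KO and 3635 in WT. Among them S100a8, a calcium-binding alarmin, differed by -0.67 in KO and 0.62 in WT, and Camp, the cathelicidin precursor, by -0.54 and 0.57. At 3 h the genotypes were near each other for both genes: S100a8 had an FPKM of 2865 in KO and 2833 in WT, and Camp of 103.1 and 128.3. The 8 tested mast cell, basophil and eosinophil markers had a median of -0.49 in KO and 0.14 in WT, and none of their levels exceeded an FPKM of 31 in KO. Several of these opposite signs depended on the scale. After median-ratio rescaling within each genotype, the TNF superfamily median was positive in both (1.06 in KO, 0.35 in WT), as was the difference of Camp (0.097 and 1.115). The mast cell, basophil and eosinophil median was -0.06 in KO over the same members, 0.175 over the members tested after rescaling, and 0.66 in WT. S100a8 was near 0 in KO (-0.02, WT 1.17), and the neutrophil and precursor list kept opposite signs (-0.24 and 0.66).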

How the results depend on the processing

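No alternative changed the sign of a named gene's called difference, but the balance of higher and lower genes turned: 22.0% of called genes were higher in KO and 24.6% in WT as deposited, and 56.3% and 55.7% after rescaling by the median ratio. The number of lower genes fell from 3067 to 961 in KO and from 2515 to 792 in WT with a pseudocount of 5, which shrinks the differences of low genes by its construction. Rescaling by the median ratio (0.640 for 3 h over 0 h in KO, 0.683 in WT) gave 1405 higher and 1090 lower genes in KO, and 1307 and 1040 in WT. Every other count of higher or lower genes stayed within 1.5 times its main value. Of 51 list medians, 20 were positive in KO and none of these turned negative by rescaling, while 14 of the 31 negative ones turned positive over the same members and 16 over the members tested after rescaling. Other settings changed the sign of 4 medians: BCL2 family and caspases (0.005 to -0.095, highest entry), interferon-beta, Janus kinases and SOCS proteins (0.095 to -0.004, genes at 0 left out), immediate-early factors (-0.393 to 0.075, FPKM of at least 5) and matrix proteases (-0.052 to 0.123, no filter). Of 532 genes followed individually, 43 lost their call by rescaling and 47 gained one, 53 lost it with a pseudocount of 5, 20 with an FPKM filter at 5, 7 when genes listed at 0 were left out, 2 with an equal FPKM total (Irak4 among them) and 1 with the highest entry of a symbol (Clec10a). No call was lost with a pseudocount of 0.1, without the FPKM filter, without the interval part of the rule or with symbols whose entries were all OK. No paired analysis was possible because each group has 1 library, and leaving out a library leaves no comparison. Read totals are unknown. The deposited intervals cover counting and assignment error of 1 library and leave out the spread between cultures, which is unknown.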

Other observations

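Lists not described above mostly lay near the typical gene. Fatty acid oxidation and peroxisome genes had 6 of 17 members lower and none higher in KO, with a median of -0.71, and 1 was lower after median-ratio rescaling. Acadm, a dehydrogenase of medium-chain fatty acids, had a KO FPKM of 26.7 at 0 h and 9.50 at 3 h, and Ppargc1b, a coactivator of mitochondrial genes, 6.37 and 1.20. Of 15 heat shock genes 2 were higher, Hspa1a (1.18 and 4.60) and its near copy Hspa1b (1.15 and 4.90), and 2 were lower, the chaperone Hsph1 (27.8 and 6.93) and Hspd1 (85.4 and 39.2). Hdc, which makes histamine, was higher at 3.86 and 16.9 FPKM in KO and 1.26 and 10.8 in WT, whereas the eosinophil granule genes Prg2 (30.9 and 11.1) and Epx (5.81 and 1.75) were lower in KO and had 22.3 and 24.6, and 3.66 and 5.45, in WT. Acadm, Hspd1, Prg2 and Epx were not called after median-ratio rescaling, and Epx (-0.68) was not called with a pseudocount of 5 either.

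Further features of the genes were described after the differences were seen. Promoters of higher genes held a median of 13 CpG in 300 bases, those of genes higher by 4-fold or more 8, those of lower genes 22 and those of all tested genes 21. By list, the median was 2 for CC chemokines, 7 for proinflammatory cytokines, 24.5 for cholesterol synthesis and 25 for mitotic genes. The nonamer ATTTATTTA, a core of AU-rich elements that shorten the life of an mRNA, was in 7.8% of transcripts of higher genes, 4.3% of lower genes and 5.8% of all, and in 5 of 13 transcripts of proinflammatory cytokines. Genes higher by 4-fold or more spanned a median of 15031 bases, all tested genes 20178. CpG content, promoter letters and gene span are related among genes, and no test was run on them.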
